A study of Drosophila melanogaster with 16 samples.

Results

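A pair of genes of the actomyosin and adhesion machinery were followed in the heart of ageing flies: zip, which encodes the heavy chain of nonmuscle myosin II, and Rap1, a small GTPase of the Ras family that the study lists under its older symbol R. They were chosen by transcript number, FBtr0072398 for zip and FBtr0072867 for Rap1, because the study had listed probes of both transcripts as higher at 40 days on these same samples. The difference between 40 and 10 days in these 2 genes is therefore a description, and where calls of a fit across the whole array are counted for them the counts support nothing. The array held 16 probes for them, 8 for each, of 132999 gene probes for 16637 transcripts. The study's list held 8 of the 16, namely 7 of Rap1 and 1 of zip.

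The hearts came from adult males of the w1118, Canton S isogenic line, aged 40 days or 10 days and housed 30 to a batch (temperature 25°C, humidity 60%), and the labels name no transgene and no treatment at either age. Each sample was RNA of 10 hand-dissected cardiac tubes, with 4 samples at each age, amplified in 2 rounds from an oligo(dT) primer and labelled once with Cy5 and once with Cy3. Both ages met on each of the 8 arrays, one in each dye. A cardiac tube is a mixture of cell types, so fewer cells of a type and less RNA per cell cannot be told apart.

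Nonmuscle myosin II is a motor built of heavy chains and of essential and regulatory light chains. It slides actin filaments past each other at the cell cortex, and phosphorylation of its regulatory light chain switches it on. Rap1 is a membrane-bound switch that is active when it carries GTP and that acts on integrin and cadherin adhesion. In the fly embryo zip is known for dorsal closure, when the epidermis is drawn over the amnioserosa, and Rap1 is known for positioning adherens junctions. Contraction of the heart muscle itself rests on another myosin heavy chain, that of the sarcomere.

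The names need a caution. The study's probe-level table gives the names zip and R to these transcripts, but its gene-level table, matched here by signal and fold, gives the same values under uzip and ninaE. In the RefSeq gene table zip is also listed as an older name of uzip, which is its neighbour on chromosome arm 2R, and R is an older name of both Rap1, on 3L, and ninaE, a gene of the eye, on 3R. The probes of FBtr0072398 start between bases 4568 and 5970 of their transcript, and those of FBtr0072867 between bases 19 and 391. The names of the probe-level table are used below, and no eye marker of the list drawn up could be named on the array, so a share of eye RNA was not tested.

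Levels are given first by sample, from the authors' lowess-normalized table, as the geometric mean of the 2 dyes, with the samples named A to D as in that table. A probe was called bright in a channel when it exceeded the 95th percentile of the random control probes there, a value of 108 to 183 scanner units in 40-day channels and 110 to 214 in 10-day channels. The share of gene probes that were bright was 22.6% to 29.0% over the 40-day channels and 22.1% to 29.7% over those of 10 days.

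All 8 probes of Rap1 were bright in all 16 channels. For the transcript as a whole, the mean of its 8 probes, the normalized intensity was 1884, 1941, 1804 and 1588 in 40-day samples A to D, against 928, 879, 631 and 911 in 10-day samples A to D. Every 40-day heart sample lay above every 10-day sample, a separation shown by 3.29% of all transcripts, and the lowest 10-day value was that of sample C. The geometric means were 1799 at 40 days and 828 at 10 days, a 2.17-fold difference (log2 difference 1.12, with SDs of 0.13 among the 40-day and 0.26 among the 10-day samples, n = 4 each).

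The single probes of Rap1 pointed the same way along the transcript. The probe at base 391 had 5568, 5971, 4853 and 4379 intensity units in 40-day samples, against 2144, 2378, 1516 and 2088 in 10-day samples, with no overlap. The probe at base 226 gave 4865, 5459, 4498 and 4696 units in 40-day samples and 2057, 2246, 1303 and 1955 in 10-day samples, again with a clear gap. The probe at base 19, nearest the start and the only one of the 8 that the study did not list, had 401, 359, 363 and 278 units in 40-day samples, against 244, 242, 182 and 225 units in 10-day samples. Its groups did not overlap either, but the gap was narrow.

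Geometric means of the 8 Rap1 probes ran from 347 to 5156 units at 40 days and from 222 to 2004 at 10 days. In 8 of 8 probes the 4 samples of 40 days lay above the 4 of 10 days, a pattern that 2.53% of all gene probes showed, and 7.87% of the 16948 gene probes bright in all channels. That contrast chose the transcript, so nothing is read from the count.

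**Figure D1:**
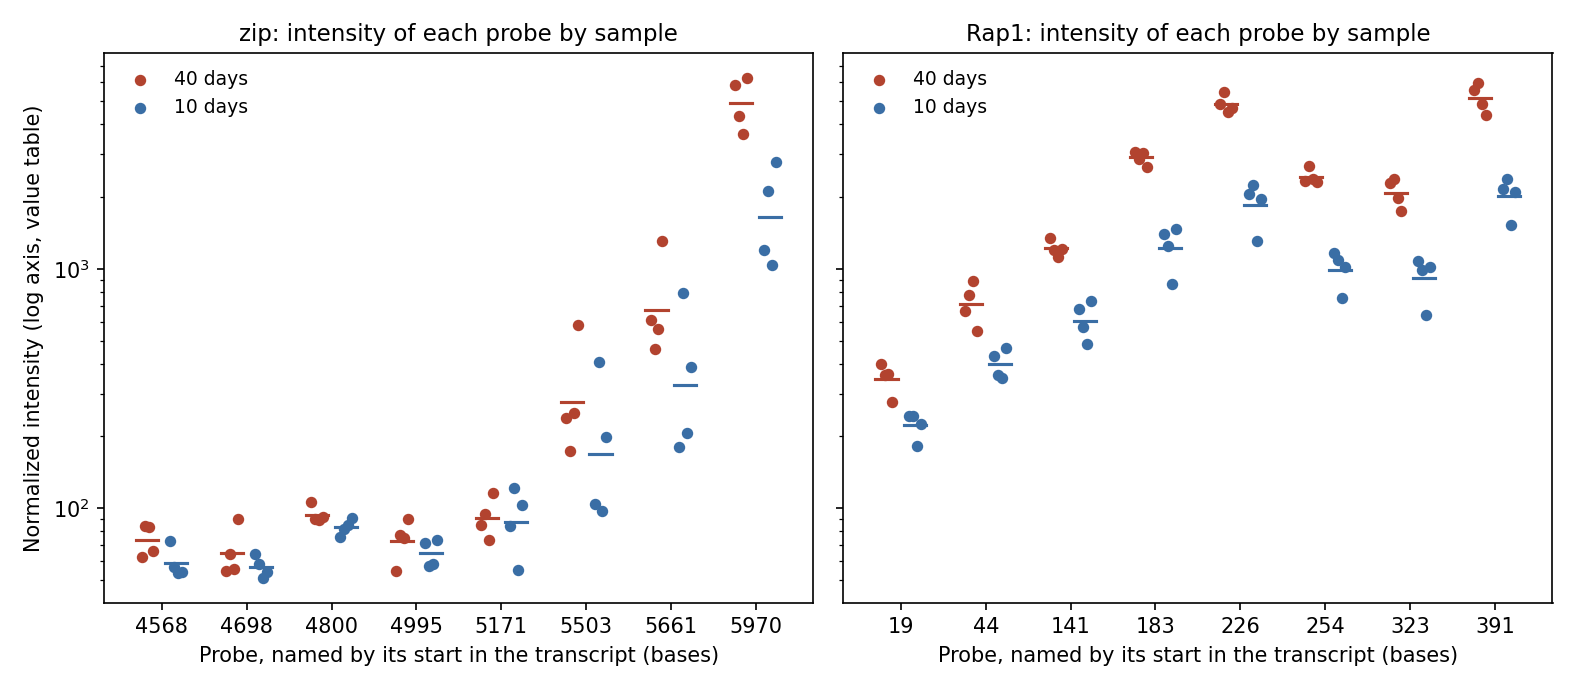
Normalized intensity (log axis) of each probe of zip (left) and Rap1 (right) in the 4 samples of 40 days (red) and the 4 of 10 days (blue), with probes ordered by their start in the transcript and bars at the geometric means. The groups are separate at all 8 Rap1 probes, and in zip only at base 5970, where 40-day samples lie between 3667 and 6255 and 10-day samples between 1037 and 2801.

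The picture for zip was different, because only the 3 probes nearest the end of the transcript were bright in any channel. The probes at bases 4568, 4698, 4800, 4995 and 5171 were bright in none of the 16 channels. Their intensities lay between 54.8 and 116 in 40-day samples and between 51.4 and 122 in 10-day samples, in the range of the control probes, so they give no level for zip.

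The last probe, at base 5970, was the only one of zip that the study listed, and was bright in all 16 channels. It had 5831, 4336, 3667 and 6255 intensity units in 40-day samples A to D, against 1199, 2112, 1037 and 2801 in 10-day samples A to D. The groups did not overlap. The geometric means were 4908 at 40 days and 1647 at 10 days, a 2.98-fold difference (log2 difference 1.58, with SDs of 0.36 among the 40-day and 0.68 among the 10-day samples, n = 4 each).

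The next 2 probes did not separate the ages. The probe at base 5661 gave 613, 461, 558 and 1311 units in 40-day samples, against 181, 795, 207 and 389 in 10-day samples. Sample B of 10 days stood above 3 of the 4 samples of 40 days there. The probe at base 5503 gave 239, 173, 251 and 584 units in 40-day samples and 104, 408, 97.3 and 198 in 10-day samples, with the same samples high. These 2 probes were bright in 16 and 13 of the 16 channels.

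Averaged over its 8 probes, the zip transcript had 186, 183, 182 and 269 units in 40-day samples, against 122, 184, 106 and 161 in 10-day samples. Sample B of 10 days stood above B and C of 40 days, so the transcript's groups overlapped, and 40 days was higher in 14 of the 16 pairings of a 40-day with a 10-day sample. This average leans on 5 probes that were bright in no channel, and the difference at base 5970 is diluted in it.

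A bright end of a transcript with no bright probe among its first 5 was rare but not confined to zip. Over the 16617 transcripts with 8 probes, the share of probes bright in at least 8 channels was 9.92% for the probe nearest the start and 44.8% for the probe nearest the end. Of the 474 transcripts whose last probe starts beyond base 5000, 32.7% had a last probe that bright. The pattern of zip, with its first 5 probes bright in no channel and its last bright in all 16, was found in 9, zip included, of the 80 such long transcripts with a last probe bright in all 16 channels (11.25%), and in 170 of 4484 transcripts of any length (3.79%). The RNA was amplified from its poly(A) end, but the part of this step in the pattern was not tested.

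The 2 colours on each array gave a second view of the same contrast, as log2 ratios of 40 to 10 days computed from the scanner intensities after background correction and loess. The labels put 2 dye-swapped arrays under each letter. The letters of the labels and of the value table name different extracts in part: 8 of the 16 columns of that table followed the channel that carries their label (correlation across probes with the channel followed at least 0.991 in all 16), and 8 followed a channel labelled with another letter. Age and dye matched in every case. Across transcripts, with the mean of like channels taken off, Cy5 and Cy3 channels of 40 days had r of 0.73 to 0.88 if joined by the value table's letters but -0.36 to 0.34 if joined by the labels' letters. The 4 ratios may therefore share 40-day extracts, and their spread may be too small.

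The Rap1 transcript had log2 ratios of 0.95, 1.61, 0.90 and 0.96 for letters A to D, with a mean of 1.11 ± 0.34 (SD, n = 4), or 2.15-fold. All 8 arrays were above 0, between 0.75 and 1.64, whichever dye the 40-day sample carried, which held for 5.3% of transcripts. The letter B ratio was the highest by a wide margin, and its 2 arrays were those on which the channel of the low 10-day sample C of the value table was measured.

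The zip probe at base 5970 had log2 ratios of 1.93, 2.10, 1.03 and 1.22 for letters A to D, with a mean of 1.57 ± 0.52 (SD, n = 4), or 2.97-fold, and was above 0 on all 8 arrays, as 2.85% of gene probes were. The lowest of the 8 was 0.66, on the array of letter C with the 40-day sample in Cy5. On that same array the probes at bases 5661 and 5503 were below 0, at -0.63 and -0.66, while on the other 7 arrays they lay between 0.43 and 1.72. Its 10-day channel is one that sample B of the value table follows, the 10-day sample that was high at these probes. On the dye-swapped array of letter C, whose 10-day channel that sample follows too, they were at 1.23 and 0.66. The zip transcript as a whole had ratios of 0.50, 0.72, 0.31 and 0.48, with a mean of 0.50 ± 0.17 (SD, n = 4), or 1.42-fold. It was above 0 on 7 of 8 arrays.

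**Figure D2:**
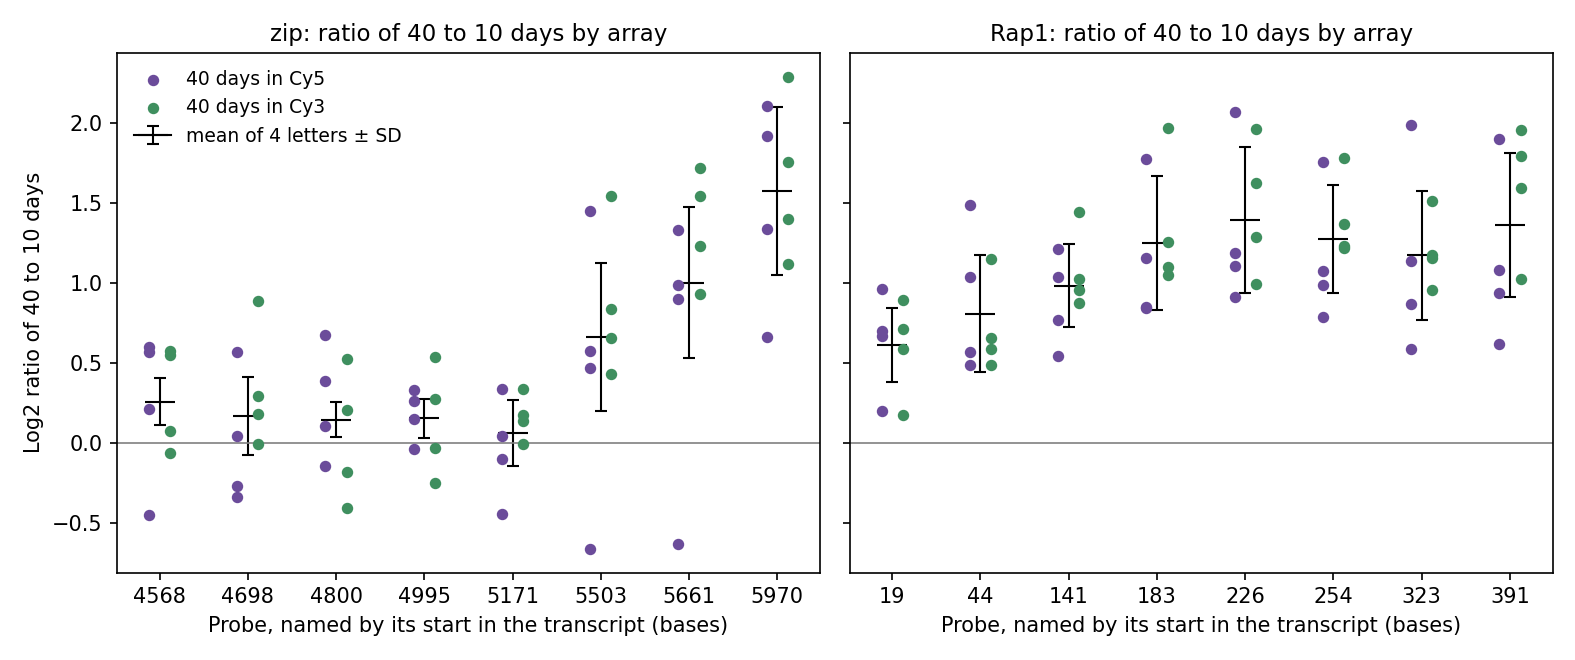
Log2 ratio of 40 to 10 days for each probe of zip (left) and Rap1 (right), with a point for each of the 8 arrays coloured by the dye of the 40-day sample and black bars for the mean ± SD over the 4 letters. Rap1 is above 0 on every array at every probe, and zip is so only at base 5970; at bases 5503 and 5661 one array lies at -0.66 and -0.63.

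By probe, mean ratios of Rap1 ran from 0.61 at base 19 to 1.39 at base 226, with SDs of 0.23 to 0.45 over the 4 letters. Those of the 5 dim zip probes ran from 0.06 to 0.26. Of all gene probes, 0.648% had a higher mean ratio than the zip probe at base 5970. Of all transcripts, 1.02% had a higher ratio than Rap1 and 4.02% a higher one than zip, while 52.7% of transcripts lay above 0 and the median transcript was at 0.01.

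In limma's fit across all probes, none of the 16 probes passed an adjusted p under 0.01, the level at which 0.332% of gene probes were called higher at 40 days. At an adjusted p under 0.05, 7 of the 16 passed, 6 of Rap1 and the zip probe at base 5970, against 1.14% of gene probes higher at 40 days, and 11 of the 16 had an unadjusted p under 0.05, against 7.11%. Neither transcript passed 0.01, where 0.144% of transcripts were called higher. Rap1 alone passed 0.05, where 1.33% were, but not when any 1 letter was left out or when the median of its probes was taken. Of the probes, 1 of Rap1 and 0 of zip passed 0.05 without letter A, 0 of both without B and 0 of both without D, and 6 of Rap1 and 3 of zip without C. Calls moved over the whole array too. Over all gene probes, 503 passed 0.01 with every letter, and 76, 0, 670 and 0 without A, B, C and D. Over all transcripts, 31 passed 0.01 with every letter and 0 with any 1 left out. The shares at 0.05 in these fits are not given, so the losses are not read as particular to these genes. In the value table, fitted with limma as 4 samples against 4, the Rap1 transcript passed 0.01, as did 0.301% of transcripts in that direction. There 6 of the 8 Rap1 probes passed 0.05, but 0 of the 8 zip probes did, so the call at base 5970 was lost. Over all gene probes 350 passed 0.01 in that fit, either way, against 503 in the fit on ratios. Its share at 0.05 is not given, so nothing is read from these probe counts. The zip transcript did not pass there either (adjusted p of 0.37 by limma). With 8 arrays and the letter as a random block, 7 probes of Rap1 and 1 of zip passed 0.01, against 1.31% of gene probes higher at 40 days. Because the study called these probes on the same samples, the counts are read as a description only.

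The dye contrast is independent of the age contrast that chose the genes, so it could be tested. The test is weak, because the 2 channels of 40 days under a letter may come from different extracts. That would widen the spread of the 4 dye values, so a dye difference may be missed. The log2 ratio of Cy5 to Cy3, averaged over dye-swapped arrays, lay between -0.35 and 0.11 for the 16 probes. In limma's fit none of them passed an adjusted p under 0.01 and none had an unadjusted p under 0.05. Of all 132999 gene probes, 0 passed 0.01 and 4324 had an unadjusted p under 0.05, so the adjusted threshold set nothing apart here. With median centring in place of loess 8 of the 16 had an unadjusted p under 0.05, and without letter D 2 did. The share of all gene probes is not given for these settings, so nothing about the 16 probes is read from those counts.

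Within an age and dye, the channels showed which probes varied together. The probes of zip at bases 5503 and 5661 were closely alike, with a Pearson's r of 0.97 over 16 channels taken as deviations from the mean of the 4 channels of the same age and dye, and both were less like the probe at base 5970 (r 0.74 and 0.74). The probe at base 5171, though bright in no channel, varied in part with them (r 0.59 with base 5503, 0.63 with 5661 and 0.60 with 5970). For the other dim zip probes r with these bright probes lay between -0.43 and 0.31. The 16 channels are 8 extracts in 2 dyes, so they are not 16 independent samples. The 28 pairs of Rap1 probes had r between 0.18 and 0.92, with a median of 0.65. zip and Rap1 were little alike: r was 0.10 between the transcripts and 0.28 between the zip probe at base 5970 and the Rap1 transcript.

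Among the 643 bright transcripts that could be named, the 5 most like Rap1 by this measure were unc-13, a regulator of synaptic vesicle release (r 0.87), Fur1, a furin protease (r 0.81), CG11686 (r 0.81), Sdc, the heparan sulphate proteoglycan syndecan (r 0.80), and bip2 (r 0.79). The 5 most like the zip transcript were Rab4, a GTPase of endosome recycling (r 0.94), CG1667 (r 0.91), Socs16D (r 0.90), Sxl, the master switch of sex determination (r 0.88), and Rep, a Rab escort protein (r 0.88). For the zip probe at base 5970, a comparison added after its values had been seen, the 2 closest were transcripts of sqd, which encodes an RNA-binding protein (r 0.94 and 0.91). Each is the top of a ranked list and carries no test.

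The partners of both genes were read from lists of actomyosin and adhesion genes. Transcripts could be named only where the study had called them, which gave 41 named genes beside zip and Rap1, so their direction is not independent evidence. Direction also followed the source of the name, here and among the cell markers below. Every list gene named from the probe-level list had a ratio above 0, and every one named by matching the gene-level table by value lay below 0. A common side within a list is therefore not read as a result. Of the 41, Mmp1 alone rose at an adjusted p under 0.01 in limma and none fell, and 7 rose and none fell at 0.05. Over all transcripts, 0.144% rose and 0.0421% fell at 0.01, and 1.33% rose and 0.198% fell at 0.05. Of the 41, 36 had an unadjusted p under 0.05, against 17.6% of all transcripts. The median log2 ratio over all 1161 named transcripts was 0.30, against 0.01 over all transcripts, so a list's median is to be read against both.

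Of 15 listed partners and regulators of nonmuscle myosin II, 4 were named, all with ratios above 0 (median 0.53) and none past 0.05 or 0.01. The regulatory light chain gene sqh had 271, 271, 594 and 275 units in 40-day samples, against 258, 213, 293 and 153 in 10-day samples, so the groups overlapped, with sample C the highest at each age. Its log2 ratios were -0.01, 0.43, 0.93 and 0.84 (mean 0.55, with a standard error, SE, of 0.18 over the 4 ratios and an adjusted p of 0.24 by limma). RhoGDI, an inhibitor that holds small GTPases in the cytosol, gave a mean ratio of 0.64 (SE 0.12, with an adjusted p of 0.11 by limma). The zip transcript was at 0.50, an average that includes 5 probes, of its 8, that were bright in no channel. With dim probes left out of every transcript, zip was at 1.08, sqh at 0.55 and RhoGDI at 0.78, and the 4 named partners ran from 0.52 to 1.09. A probe was kept here when bright in at least 4 of the 16 channels. The 40-day channels alone could meet that rule, so it may favour probes that rise, and nothing is read from these values.

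Of 14 other Ras family GTPases and regulators, 2 were named. Rala, a Ras-like GTPase of exocytosis, had 3169, 2912, 2135 and 2564 units in 40-day samples, against 962, 1331, 979 and 1353 in 10-day samples, with no overlap. Its log2 ratio was 1.22 (SE 0.16, with an adjusted p of 0.049 by limma, 4 of 4 ratios above 0), which passed 0.05 and not 0.01. The RasGAP gene vap had a mean ratio of 0.33 (SE 0.05, with an adjusted p of 0.065 by limma).

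The named adhesion genes stood on the same side, as did every list gene named from the probe-level list. In the adherens junction list 5 of 14 were named and all 5 ratios were above 0 (median 0.55). kug, a large cadherin of the Fat family, rose by 0.44 (SE 0.04, with an adjusted p of 0.028 by limma) at the 0.05 level, though its samples lay near background and its groups overlapped. The L1-type adhesion molecule Nrg had a mean ratio of 0.86 (SE 0.11, with an adjusted p of 0.050 by limma). In the integrin list 4 of 20 were named, again all above 0 (median 0.34) and none past 0.05. Sdc had 1825, 1872, 1523 and 1311 units in 40-day samples, against 563, 720.1, 438 and 760.3 in 10-day samples, with no overlap, and a mean ratio of 1.39 (SE 0.20, with an adjusted p of 0.059 by limma). The integrin alpha subunit gene scb had a mean ratio of 0.28 (SE 0.04, with an adjusted p of 0.058 by limma) and lay near background.

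Of 40 actin genes and regulators 20 were named, 19 with ratios above 0 (median 0.47), and 4 rose at an adjusted p under 0.05. Moe, which links actin to the membrane, rose by 0.85 (SE 0.06, with an adjusted p of 0.016 by limma), and beta-Spec, a spectrin of the membrane skeleton, rose by 0.77 (SE 0.07, with an adjusted p of 0.023 by limma). The calls of Moe, beta-Spec, kug and Rala at 0.05 were lost when letter A, B or D was left out and kept without letter C. With 1 letter left out, adjusted p by limma reached 0.11 for Moe, 0.14 for beta-Spec, 0.18 for kug and 0.25 for Rala. In the value table it was 0.10 for Moe, 0.14 for beta-Spec and 0.34 for kug, while Rala passed 0.05 there at 0.017. The named muscle genes did not share one side, and the 2 below 0 were those named by matching the gene-level table by value. Of 23 sarcomere genes 4 were named, 2 above and 2 below 0 (median -0.22), and none passed 0.05. The troponin C gene TpnC47D had 125, 132, 215 and 115 units in 40-day samples, against 534, 287, 614 and 532.3 in 10-day samples, with no overlap, and a mean ratio of -1.61 (SE 0.23, with an adjusted p of 0.059 by limma). how, an RNA-binding protein of muscle, had a mean ratio of 0.50 (SE 0.10, with an adjusted p of 0.13 by limma).

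Of 14 matrix genes 2 were named. The matrix metalloproteinase gene Mmp1 had 514, 398, 686 and 459 units in 40-day samples, against 186, 212, 193 and 165 in 10-day samples, with no overlap, and rose by 1.35 (SE 0.06, with an adjusted p of 0.0084 by limma, 4 of 4 ratios above 0). With 1 letter left out, whichever it was, Mmp1 had an adjusted p of 0.027 to 0.084 by limma, and 0.00022 to 0.013 under the 8 other alternatives. The peroxidasin gene Pxn had a mean ratio of -0.22 (SE 0.08, with an adjusted p of 0.26 by limma).

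**Figure D3:**
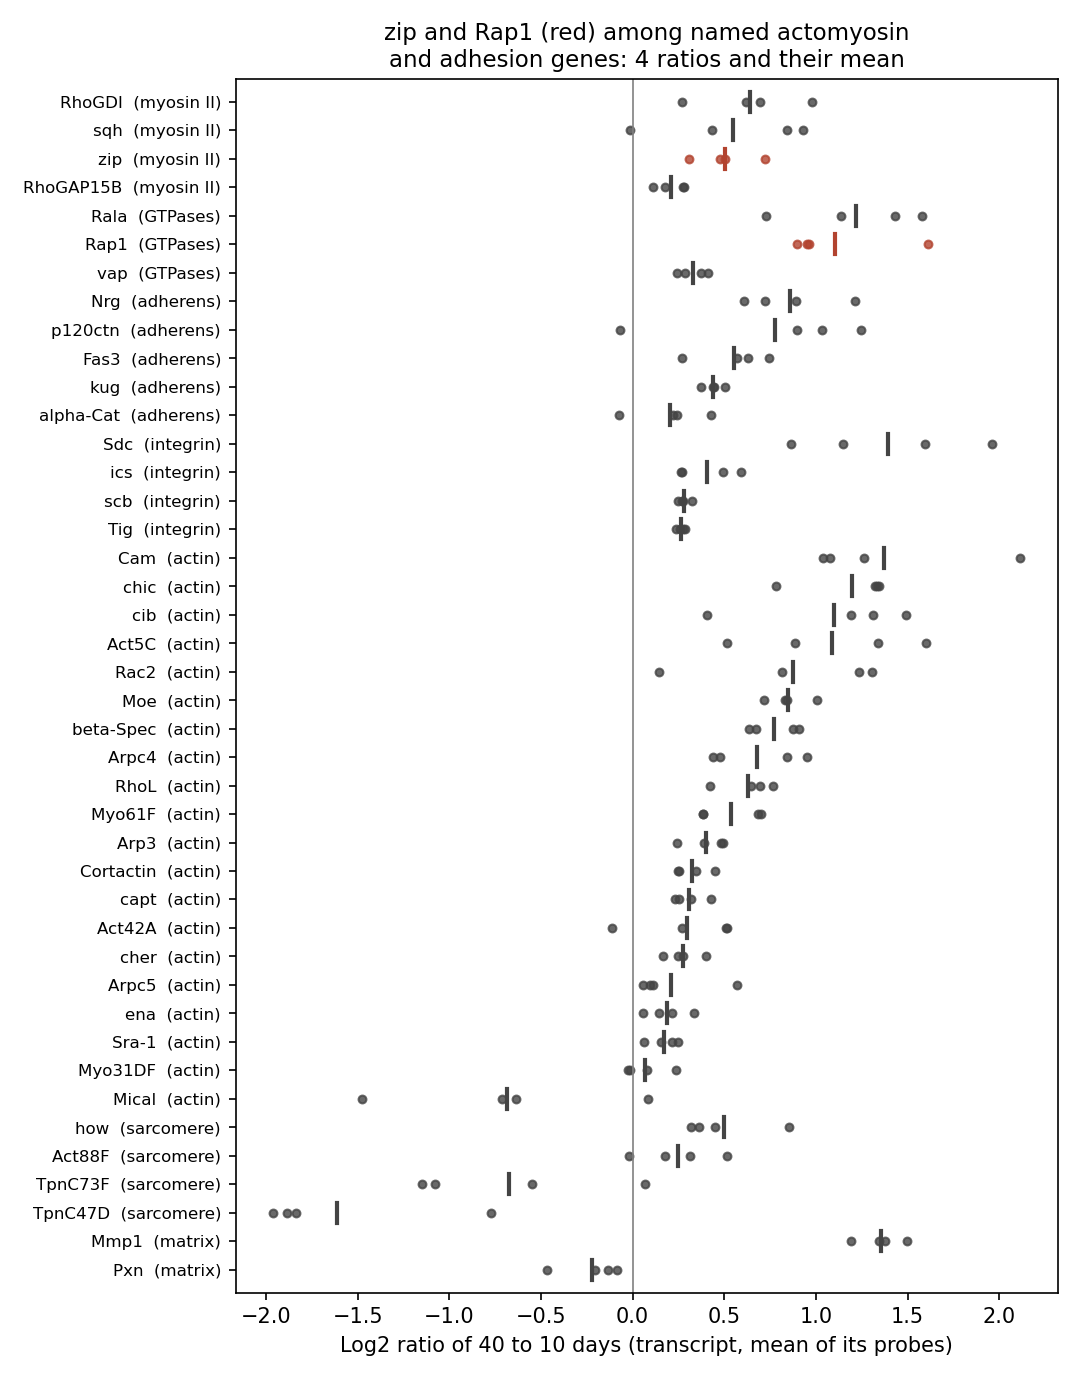
Log2 ratios of 40 to 10 days of zip and Rap1 (red) and of 40 of the 41 named genes of the actomyosin, GTPase, adhesion, actin, sarcomere and matrix lists (grey), with a point for each of the 4 letters and a bar at the mean. zip lies at 0.50 with all 8 probes averaged, Rap1 at 1.11 lies next to Rala at 1.22, and TpnC47D at -1.61 is farthest below 0. With dim probes left out zip is at 1.08, against 0.52 to 1.09 for the 4 named myosin II partners. Bright 40-day channels alone could keep a probe in that filter.

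Markers of other cells were read beside these values. None of the 9 cardiac identity markers could be named, so the label of the tissue was not checked against them. The summed intensity of the 4 named haemocyte markers of 11 was 711 to 901 units in 40-day samples and 954 to 1350 in 10-day samples. Of the 4, 2 (crq and drpr) were higher and 2 (Hml and Sr-CI) lower at an adjusted p under 0.05 in limma. Hml alone was at 164 to 326 units in 40-day and 508 to 929 in 10-day samples. The markers split, so nothing is read from their sum. Without letter A, B or D none of these 4 calls held (adjusted p of 0.084 to 0.22 by limma), and without C those of crq and Sr-CI did. In the value table the adjusted p by limma was 0.29 for crq, 0.16 for drpr and 0.051 for Hml. Sr-CI alone passed 0.05 there, at 0.034. The sum of the 6 named testis markers of 15 was 1024 to 4120 units in 40-day samples and 4127 to 12762 in 10-day samples, and that of the 4 named fat body markers of 11 was 1466 to 5317 units in 40-day samples and 1313 to 2597 in 10-day samples. None of these 10 genes passed 0.05. All 6 testis markers had mean ratios below 0, while the fat body markers split, with fit at 2.08 and apolpp at 1.22, but Lsp2 at -1.65 and Obp99a at -1.64. The part of such cells in the values of zip and Rap1 was not tested.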

How the data were processed

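The authors deposited scanner intensities of 2 colours written by NimbleScan 2.5.26 (per the file headers), as they came from the scans, and a table of lowess-normalized linear intensities. Both were made from NimbleGen arrays of 60-base probes. Genome build and probe sequences are not given in the sources used here. Scanner intensities were corrected with normexp (offset 50), normalized within arrays by loess and turned to log2 ratios of 40 to 10 days in limma 3.58.1 (R 4.3.3, statmod 1.5.0, the package data.table, version 1.17.8). Control probes were left out. The 2 arrays of a letter were averaged, a transcript was the mean of its probes, and the 4 ratios were tested against 0 (lmFit, eBayes, Benjamini-Hochberg over all features, threshold 0.01). Where the study's methods called for limma as well, their false discovery rate was stricter. The script was tested on simulated data. Tables and figures used Python 3.11.15, numpy 2.4.6, pandas 2.3.3, scipy 1.17.1 and matplotlib 3.10.9.

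Gene names came from the probe-level list of the study (701 transcripts, from 1998 probe entries) or from matching its gene-level table by value (1035 transcripts), 1161 in all. Of 575 transcripts named by both, 21 had different genes. Only the names were used, not the authors' folds or p-values, except for matching. The number of arrays limits the precision.

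Genes named in the text are both members with all their probes, sqh and Rala as partners, up to 4 genes of a list past 0.01 or, where fewer than 2 passed, the 2 with the smallest p, and the 5 most alike. A gene that the rule names is not reported here. The members and lists were chosen with earlier results of these data known. Alternatives were the value table, separate channels, a random block for the letter, leaving out each letter in turn, median centring, Aquantile, uncorrected background, dropping dim probes, medians over probes, and thresholds of 0.05 and 0.0001.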

Additional observations from a re-analysis of the deposited data

Results flagged for a closer look

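Of 54 groups of 4 values of zip and Rap1 (probes and transcripts, by age and by ratio), 5 held a value far from the others, by the ratio of its gap to the whole range in Dixon's test; chance flags about 1 in 20 groups, and the groups share samples. The zip transcript was highest in sample D of 40 days, at 269 units against 182 to 186 in A to C (gap over range 0.933). The dim zip probe at base 4800 was highest in sample A of 40 days (0.832), a probe that was bright in no channel. The Rap1 transcript was lowest in sample C of 10 days, at 631 units against 879 to 928 in the other 3 (0.858), as was its probe at base 323 (0.845). The log2 ratio of the Rap1 transcript was highest for letter B, at 1.61 against 0.90 to 0.96 for the others (0.909), and the 10-day channels under letter B are those that the value table's sample C follows.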

How the results depend on the processing

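The mean log2 ratios of zip, Rap1 and the zip probe at base 5970 stayed above 0 under all alternatives. They moved by less than the SD of the 4 ratios under all but one: the zip transcript was 1.08 with the filter on dim probes, which removes its 5 dim probes, against 0.50. Leaving out each letter gave 0.43 to 0.57 for the zip transcript, 0.94 to 1.17 for Rap1 and 1.39 to 1.75 for the zip probe. Over all transcripts, 31 passed 0.01, against 56 in the value table, 148 with separate channels and no replicate block, 340 with the letter as a random block, 63 with the filter on dim probes, 255 at 0.05 and 0 at 0.0001. Over all probes, 503 passed, against 2469 with the random block, 335 with the filter, 1836 at 0.05 and 0 at 0.0001. Among the 41 list genes 1 passed, against 2 with median centring, 7 without the block, 14 with the random block, 7 at 0.05 and 0 at 0.0001. Leaving out letter A, B, C or D left 0 transcripts and 0 list genes past 0.01 each time (1610 to 2937 transcripts and 29 to 34 list genes at an unadjusted p under 0.05), and 76, 0, 670.0 and 0 probes. The labels' letters did not join the 2 channels of a 40-day extract (r of -0.36 to 0.34, against 0.73 to 0.88 by the value table), so the pairing by letter is in doubt. Without the block the member ratios were the same, at 0.50, 1.11 and 1.57. Averaging the same channels fixes this under any pairing, so it does not check the pairing. The random block and Aquantile could not move these ratios either. No dye difference of the 16 probes passed 0.01 under any alternative run. The reading of zip is limited because 5 of its 8 probes were bright in no channel, and its bright probes were the 3 nearest the end.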
